A study of Mus musculus with 2 samples.

Results

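The 10 genes described here encode the Toll-like receptors Tlr1, Tlr2, Tlr3, Tlr4, Tlr6, Tlr7, Tlr9 and Tlr13 and the lipopolysaccharide co-receptors Cd14 and Ly96. They were chosen as a receptor family, with earlier results of these data known, and found by symbol among the 32285 genes of the feature table, each in 1 row. The study profiled microglia, the resident macrophages of the brain parenchyma, by droplet single-cell RNA sequencing of 3′ ends. All mice were 12 weeks old and carried 1 copy of Cx3cr1CreERT2(Litt), an allele with a Cre recombinase that tamoxifen activates, driven from the Cx3cr1 locus, which is active in microglia and other mononuclear phagocytes. One group was given tamoxifen (TAM, 4 weeks per the labels) and the other oil. Brains were perfused with PBS, and cells sorted as CD11b+ CD45+ Ly6G- CD206- were pooled into 1 gene expression library with 10 hashtag antibodies, named TAM1 to TAM5 and Oil1 to Oil5. The oil controls carry the same allele, and tamoxifen without Cre was not analysed here, so an effect of the drug and an effect of active Cre cannot be told apart. Whether the 10 hashtags came from 10 mice is not given in the labels. The p-values therefore rest on differences among hashtags of 1 pool, and part of these may be technical.

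Toll-like receptors recognise conserved molecules of microbes and of damaged cells, and in the brain microglia are a main cell type that carries them. Tlr4 sits at the cell surface in a complex with Ly96 (MD-2), which binds the lipid part of lipopolysaccharide, and Cd14 hands the ligand to that complex. Tlr2 pairs with Tlr1 or Tlr6 to recognise bacterial lipopeptides, while Tlr3, Tlr7, Tlr9 and Tlr13 sense double-stranded RNA, single-stranded RNA, unmethylated CpG DNA and bacterial ribosomal RNA inside endosomes.

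Among the 6 members with an entry in the RefSeq promoter table (build GRCm38.p6), a match to the NF-kB motif lay in the 250 bases before the RefSeq start of Tlr2 and of Tlr3. The gene spans given with the values below come from GENCODE, whose starts for these 2 genes differ: the Tlr3 window lies inside the GENCODE span, and the Tlr2 window straddles its 5′ end. These windows are shown because both genes differed most between microglial states among the more abundant members, by the cut on UMIs given further on. Tlr1, which also has a window, fell below that cut and was not ranked. Capitals mark the match, and each strand is read 5′ to 3′ in the direction of the gene. The Tlr2 window is chr3:83841609-83841858 on the minus strand, with matches in both orientations that overlap each other between positions -173 and -163 relative to the start.
Tlr2: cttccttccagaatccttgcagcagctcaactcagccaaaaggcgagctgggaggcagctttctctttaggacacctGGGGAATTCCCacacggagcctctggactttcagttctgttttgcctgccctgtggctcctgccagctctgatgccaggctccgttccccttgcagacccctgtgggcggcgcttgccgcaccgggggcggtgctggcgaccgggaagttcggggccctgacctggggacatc
The Tlr3 window is chr8:45410381-45410630 on the minus strand, with 1 match at positions -211 to -202.
Tlr3: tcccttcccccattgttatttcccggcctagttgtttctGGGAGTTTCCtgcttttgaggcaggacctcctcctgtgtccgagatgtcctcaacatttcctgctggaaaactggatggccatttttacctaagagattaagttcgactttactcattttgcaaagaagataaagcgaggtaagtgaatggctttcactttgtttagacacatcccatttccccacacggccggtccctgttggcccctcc
Both strands were searched, and 3.90% of all 32851 promoter windows held an NF-kB match. Outside the printed sequences, the PU.1 core (GAGGAA) was found before Tlr1, Tlr9 and Tlr13 and in 23.3% of all windows. The AP-1 motif (TGANTCA) was found before Tlr9 and in 6.75% of all windows, and the tandem interferon-response repeat (GAAA, any 2 bases, GAAA) before Tlr6 and in 2.98%. The 6 members had 8 windows, as Tlr1 and Tlr6 had 2 each, and the other window of each held no match. Such matches describe the letters of the window and nothing about a factor.

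Of the 9975 barcodes, 7903 single-hashtag cells passed the filters, and 7538 of them fell into 6 microglia-like clusters, in which the 14 microglial markers were detected in a median of 96.7% to 100% of cells. Each hashtag gave 587 to 903 microglia-like cells and 2959521 to 4795880 UMIs. Summed microglial marker RNA was 31500 to 32356 CPM (counts per 1000000 UMIs) in TAM hashtags and 32371 to 35143 CPM in oil hashtags, without overlap. Monocyte markers summed to 8.79 to 20.2 CPM in TAM hashtags and 10.2 to 14.6 CPM in oil hashtags, with Ly6c2 and Chil3 at 0. The largest part of the monocyte sum, 28.5%, came from Ccr2. Markers of CNS-associated macrophages summed to 7.69 to 22.0 CPM in TAM hashtags and 4.11 to 14.2 CPM in oil hashtags, with Cd163, Ms4a7, Clec12a and Cd209f at 0. Mrc1 alone gave 91.3% of the macrophage sum. The part of these marker levels in the results was not tested. Hashtags also differed in immediate early RNA (Fos, Egr1, Ier2 and similar stimulus-induced genes). The mean log2 CPM of 24 such genes was 4.55, 4.81, 3.92, 3.53 and 3.45 in TAM1 to TAM5 and 6.62, 6.29, 5.78, 5.28 and 4.86 in Oil1 to Oil5, so the treatments did not overlap.

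All 10 receptor genes were detected in microglia-like cells, over a wide range of abundance. Levels over all microglia-like cells are given as CPM of their total UMIs. Tlr7 was the most abundant at 239 CPM, or 1.23 UMIs per cell, followed by Cd14 at 209.6 CPM and 1.08 per cell. Tlr4 had 114 CPM, Tlr3 93.1, Tlr13 87.5, Ly96 68.8, Tlr2 45.9, Tlr1 22.6 and Tlr6 19.1. Tlr9 was the rarest at 3.93 CPM, 153 UMIs in all or 0.0203 per cell. Each 3′ end is counted once per molecule, so these levels were not divided by transcript length. The ranges over hashtags left clear gaps between Cd14 and Tlr4, between Ly96 and Tlr2, between Tlr2 and Tlr1, and between Tlr6 and Tlr9. Every other pair of neighbours in this order overlapped in range, although Tlr4 exceeded Tlr3, and Tlr13 exceeded Ly96, within every hashtag. Of the 912 stretches of 90 bases in the last 1000 bases of Tlr1 transcripts, 173 also occur in Tlr6 transcripts, so the split between these neighbouring genes on chromosome 5 is uncertain. No such sharing was found for the other members, and Tlr3 overlaps an antisense gene, Gm45542, on the opposite strand.

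In the TAM hashtags Tlr4 RNA was higher and Cd14 RNA was lower than in the oil hashtags, and the other 8 members did not pass the test. Thus 2 of the 10 members were called, 1 in each direction, where 4.53% of the 11171 genes tested were called (1.65% higher and 2.88% lower in TAM). All 10 passed the filter on low counts, and their median log2 fold change was 0.03, against 0.00 over all genes tested. None of the 10 had hashtags that did not overlap between treatments, a pattern seen in 5.32% of the genes tested. Values below are TMM-scaled CPM of UMIs summed per hashtag, and tests are edgeR's quasi-likelihood F test with Benjamini-Hochberg adjustment over all genes tested, called at 0.05.

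**Figure D1:**
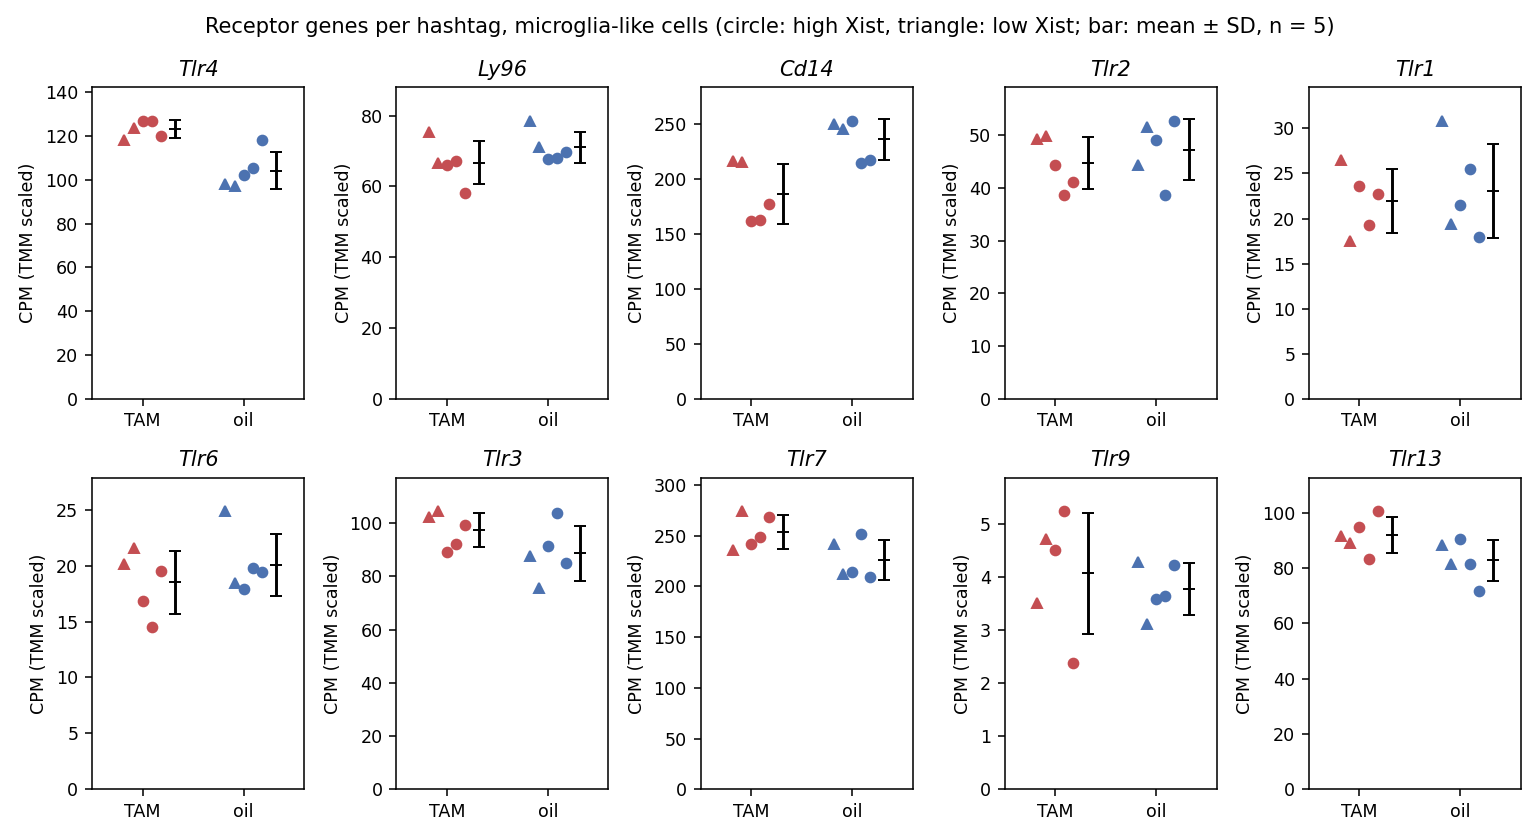
TMM-scaled CPM (vertical axes, starting at 0) of each of the 10 genes in every hashtag, with TAM in red and oil in blue, circles for hashtags with high Xist, triangles for low Xist, and bars for mean ± SD of 5 hashtags. Tlr4 in TAM sits between 118 and 127 CPM, against 97.2 to 118 CPM in oil, while Cd14 sits between 162 and 216 CPM in TAM, against 214 to 253 CPM in oil.

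The lipopolysaccharide receptor Tlr4 (chr4:66827584-66930284, plus strand, build GRCm38) had 118, 124, 127, 127 and 120.2 CPM in TAM1 to TAM5, against 98.0, 97.2, 102, 106 and 118 CPM in Oil1 to Oil5. Only Oil5 reached the level of the TAM hashtags, and it lay barely above the lowest of them, TAM1. The means were 123 ± 3.97 CPM in TAM and 104 ± 8.59 CPM in oil (SD, n = 5 hashtags each). Tlr4 rose by 0.24 ± 0.06 on the log2 scale (SE, 95% interval 0.12 to 0.36, adjusted p = 0.0249 by edgeR's quasi-likelihood test).

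Cd14, the anchored co-receptor that delivers lipopolysaccharide, moved the other way. It had 216, 216, 162, 163 and 177 CPM in TAM1 to TAM5, against 249.5, 245, 253, 214 and 217 CPM in Oil1 to Oil5. TAM1 and TAM2 stood at the level of Oil4 and Oil5, and the other 3 TAM hashtags lay well below every oil hashtag. Means were 187 ± 27.3 CPM in TAM and 236 ± 18.6 CPM in oil (SD, n = 5 each), a log2 fold change of -0.34 ± 0.08 (SE, 95% interval -0.52 to -0.17, adjusted p = 0.0261 by edgeR). Ly96, the third component of the complex (chr1:16688051-16709611, plus strand), had 75.5, 66.7, 66.0, 67.2 and 58.3 CPM in TAM1 to TAM5, against 78.6, 71.2, 67.9, 68.0 and 69.7 CPM in Oil1 to Oil5. The treatments overlapped over most of this range, and the log2 fold change was -0.09 (95% interval -0.23 to 0.06, adjusted p = 0.548 by edgeR).

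**Figure D2:**
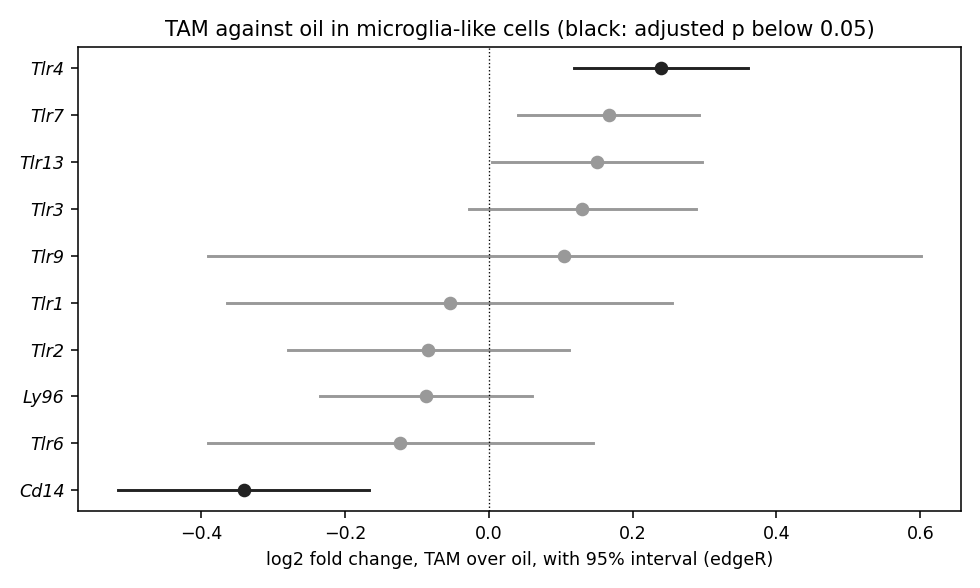
Log2 fold change of TAM over oil (horizontal axis) for the 10 genes in microglia-like cells, with lines for 95% intervals and black for genes called by edgeR. Tlr4 at 0.24 and Cd14 at -0.34 are the called genes, and Tlr9 has the widest interval, -0.39 to 0.60.

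Immediate early RNA separated the treatments more fully than either called gene did. Within oil, Oil5 had the least immediate early RNA and the most Tlr4, but within TAM the order differed, with 124 CPM of Tlr4 in TAM2, which had the most immediate early RNA, and 120.2 CPM in TAM5, which had the least. Within TAM, TAM1 and TAM2 had the most immediate early RNA and the most Cd14, but within oil the most Cd14 was in Oil3, in the middle of the order. TAM1 and TAM2 were also the TAM hashtags with low Xist RNA, so these traits cannot be told apart within TAM. With the immediate early level added to the model, the log2 fold change was 0.08 for Tlr4 (adjusted p = 0.862) and -0.00 for Cd14 (adjusted p = 0.998), and neither was called by edgeR (0.662% of genes tested were). The treatment and this covariate hardly overlap, so their parts in the Tlr4 and Cd14 differences cannot be told apart. The order of the hashtags also tracks the treatment, and with it as a covariate the values were 0.05 for Tlr4 (adjusted p = 0.941) and 0.05 for Cd14 (adjusted p = 0.964), with 0.331% of genes tested called. Leaving out 1 hashtag at a time kept both directions, but the adjusted p ran up to 0.0671 for Tlr4 and 0.0806 for Cd14. Tlr4 was no longer called without Oil1, Oil2, Oil3, TAM3 or TAM4, and Cd14 without any of these or TAM5.

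**Figure D3:**
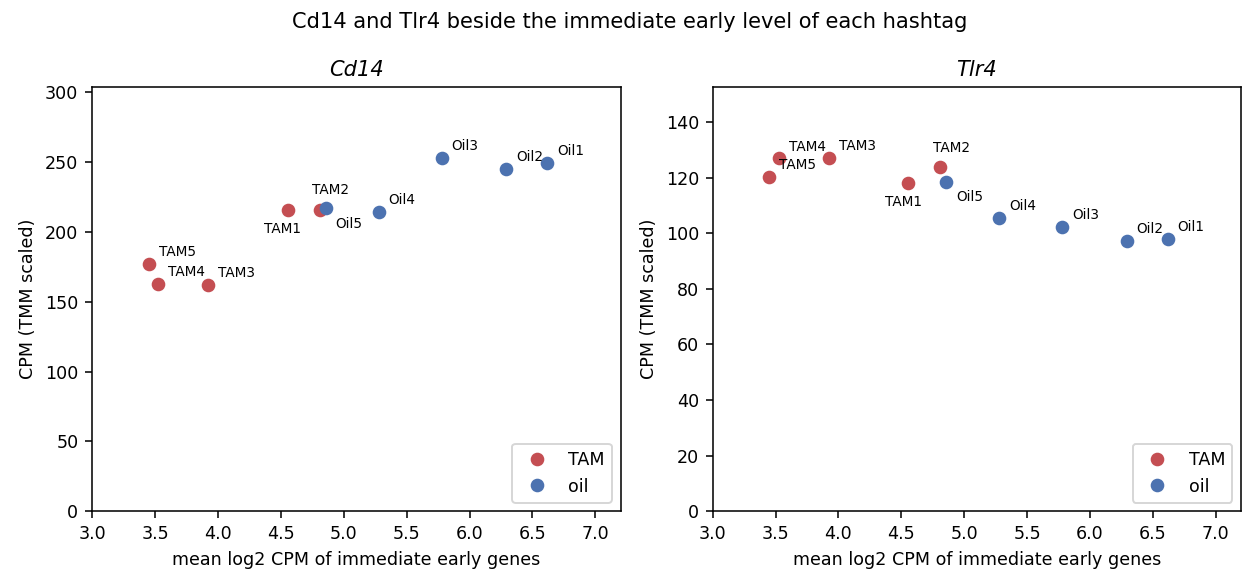
CPM of Cd14 (left) and Tlr4 (right) in each hashtag on the vertical axes, starting at 0, against the mean log2 CPM of 24 immediate early genes on the horizontal axes, with TAM in red and oil in blue. Immediate early levels run over 3.45 to 4.81 in TAM and 4.86 to 6.62 in oil, and the 3 TAM hashtags with the lowest immediate early level have the lowest Cd14. These 3 are also the TAM hashtags with high Xist RNA.

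The hashtags differed in the mix of microglial states as well. The cluster led by Fos, Egr1 and Ier2 (cluster 2) held 4.03% of microglia-like cells in TAM and 42.8% in oil, and the largest cluster (cluster 1) held 59.1% in TAM and 25.8% in oil. In sums over cells, such a shift in states and a change in RNA within a state cannot be told apart, so levels within clusters are given, as CPM without TMM scaling. Within cluster 2, Cd14 stood at 266 in TAM (exact 95% Poisson interval 233 to 304, counting error only) and 247 in oil (237 to 258). Within cluster 1 it stood at 174 in TAM (167 to 182) and 191 in oil (179 to 203), and within cluster 0 at 206 in TAM (193 to 220) and 251 in oil (237 to 266). Tlr4 stood at 120.2 in TAM (97.9 to 146) and 95.7 in oil (89.3 to 102) within cluster 2, at 127 in TAM (121 to 134) and 118 in oil (109 to 128) within cluster 1, and at 117 in TAM (108 to 128) and 102 in oil (93.2 to 112) within cluster 0. The 153 TAM cells of cluster 2 came mostly from TAM1 (104 cells), with 4 to 6 each from TAM3 to TAM5.

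Clusters 0 and 1 had enough cells in every hashtag for a test of their own. In cluster 0 alone, Cd14 fell by 0.30 on the log2 scale (adjusted p = 0.0411 by edgeR), where 0.542% of the genes tested were called. In the same cluster the log2 fold change of Tlr4 was 0.19 (adjusted p = 0.600). In cluster 1 alone, where 0.152% of the genes tested were called, the values were -0.15 for Cd14 (adjusted p = 0.711) and 0.09 for Tlr4 (adjusted p = 0.837). The difference of the TAM effect between clusters 0 and 1 was itself tested for the 10 members, with an exact 2-sided permutation test over hashtags whose smallest possible p is 0.00794. On the log2 scale it was -0.14 for Cd14 (exact p = 0.190) and 0.15 for Tlr4 (exact p = 0.206). The smallest exact p of the 10 was 0.0476, for Tlr3, and it was 0.476 after Benjamini-Hochberg adjustment over the 10 comparisons. With the clusters given the same weights in both treatments, the log2 ratio of summed counts was -0.11 for Cd14, against -0.32 without weights, and 0.20 for Tlr4, against 0.27. These ratios carry no interval, and their TAM level for cluster 2 rests on 153 cells, 104 of them from TAM1. The part of the cell mix in either difference was not tested.

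The lipopeptide receptors did not differ detectably between treatments. Tlr2 (chr3:83836272-83841767, minus strand), the shared partner, had 49.2, 49.9, 44.4, 38.7 and 41.1 CPM in TAM1 to TAM5, against 44.3, 51.6, 49.1, 38.6 and 52.7 CPM in Oil1 to Oil5. Its ranges covered each other almost completely, with a log2 fold change of -0.08 (95% interval -0.28 to 0.11, adjusted p = 0.686 by edgeR). Tlr1 (chr5:64924679-64933563, minus strand) averaged 21.9 ± 3.57 CPM in TAM and 23.0 ± 5.23 CPM in oil, and Tlr6 (chr5:64952031-64960097, minus strand) averaged 18.5 ± 2.83 CPM in TAM and 20.1 ± 2.77 CPM in oil (SD, n = 5 each). Their log2 fold changes were -0.05 (95% interval -0.36 to 0.25, adjusted p = 0.891) and -0.12 (95% interval -0.39 to 0.14, adjusted p = 0.660 by edgeR). The widths of these intervals leave differences of about the size seen for Cd14 within reach for Tlr1 and Tlr6.

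Among the endosomal receptors, Tlr7 and Tlr13 were higher on average in TAM without passing the adjusted threshold. Tlr7 (chrX:167304929-167330558, minus strand), the sensor of single-stranded RNA, had 236, 274, 242, 249 and 268 CPM in TAM1 to TAM5, against 242, 212, 214, 251 and 209 CPM in Oil1 to Oil5. Oil1 and Oil4 stood within the TAM range, and the other 3 oil hashtags lay below it. The log2 fold change was 0.17 (95% interval 0.04 to 0.29, unadjusted p = 0.0127, adjusted p = 0.126 by edgeR). Tlr13 (chrX:106143204-106160493, plus strand) had 91.4, 89.0, 94.8, 83.2 and 100.5 CPM in TAM1 to TAM5, against 88.3, 81.6, 90.5, 81.6 and 71.6 CPM in Oil1 to Oil5. The treatments overlapped, and the log2 fold change was 0.15 (95% interval 0.00 to 0.30, unadjusted p = 0.0446, adjusted p = 0.243 by edgeR).

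Tlr3 (chr8:45395665-45411080, minus strand), which signals through the adaptor Ticam1, averaged 97.4 ± 6.52 CPM in TAM and 88.7 ± 10.3 CPM in oil (SD, n = 5 each). Its log2 fold change was 0.13 (95% interval -0.03 to 0.29, adjusted p = 0.367 by edgeR). Tlr9 (chr9:106222598-106226883, plus strand) averaged 4.07 ± 1.14 CPM in TAM and 3.77 ± 0.486 CPM in oil. With so few UMIs its interval was wide, -0.39 to 0.60 on the log2 scale (adjusted p = 0.868 by edgeR).

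Tlr7 and Tlr13 lie on the X chromosome, and the hashtags fell into 6 with high Xist RNA (TAM3 to TAM5 and Oil3 to Oil5) and 4 with low Xist RNA and high Y-linked RNA (TAM1, TAM2, Oil1 and Oil2). Both kinds occurred in both treatments. Tlr7 averaged 239 CPM in the hashtags with high Xist (209 to 268) and 241 CPM in those with low Xist (212 to 274). Tlr13 averaged 87.0 CPM in those with high Xist (71.6 to 100.5) and 87.6 CPM in those with low Xist (81.6 to 91.4). Neither X-linked receptor separated the hashtags in this way. Cd14, which is not X-linked, averaged 198 CPM in those with high Xist (162 to 253) and 232 CPM in those with low Xist (216 to 249.5). Within the hashtags with high Xist, Cd14 had a log2 fold change of -0.45 (adjusted p = 3.08e-04 by edgeR, 5.74% of genes tested called), and within those with low Xist, 2 per treatment, -0.20 (adjusted p = 0.336, 1.11% called). For Tlr4 these values were 0.20 (adjusted p = 0.0814) and 0.31 (adjusted p = 0.169). With high or low Xist as a covariate on all hashtags, edgeR called Tlr4 (0.24, adjusted p = 0.00688) and Cd14, with 7.81% of genes tested called.

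Across the microglia-like clusters, Tlr2 and Tlr3 varied the most among the members with more than 1000 UMIs. None of the 10 members was among the variable genes that made the clusters, but the clusters come from the same cells, so the levels are given as a description without a test. In the cluster led by Spp1, Lgals3, Lpl, Ccl3 and Ccl4 (cluster 3, 211 cells), Tlr2 had 145 UMIs, or 116 CPM, against 43.5 CPM in the other microglia-like cells. The ratio was 2.67 (95% counting interval 2.25 to 3.14), and Tlr2 was higher there than in the other cells of the same hashtag in 9 of 10 hashtags, with 0 UMIs in the 11 cells of Oil4. Tlr1, its partner, had a ratio of 2.13 (1.62 to 2.75) in the same cluster and Tlr13 a ratio of 1.44 (1.22 to 1.68), each higher in 7 of 10 hashtags. Tlr6 had a ratio of 0.961 (0.609 to 1.44) there, an interval that did not overlap that of Tlr1, although some reads of these 2 genes cannot be told apart. Tlr3 ran the other way, at 46.4 CPM against 94.6 CPM in the other cells, a ratio of 0.491 (0.373 to 0.634), and was lower in 10 of 10 hashtags.

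The interferon-response cluster (cluster 4, 126 cells, led by Ifit3 and Rsad2) had the most Tlr3 of the 6 clusters. Tlr3 stood at 149.6 CPM against 92.1 CPM in the other cells, a ratio of 1.62 (95% counting interval 1.32 to 1.98), and was higher in 8 of 10 hashtags. Of its 99 UMIs in this cluster, 24 came from the 11 cells of Oil3, and without Oil3 the ratio was 1.34. Tlr2 had a ratio of 1.56 (1.15 to 2.08) there, higher in 7 of 10 hashtags. Without Oil5 this ratio was 1.30, and without Oil2 it was 1.34. In TAM, Tlr2 stood at 44.8 CPM in this cluster and 45.1 CPM in all microglia-like cells. In oil these levels were 118 and 46.7 CPM. In the dividing cluster (cluster 7, 87 cells, led by Mki67 and Top2a), the ratios were 0.507 (0.394 to 0.643) for Cd14 and 0.522 (0.331 to 0.783) for Ly96. They were 0.503 (0.340 to 0.719) for Tlr3, 0.622 (0.504 to 0.761) for Tlr7 and 1.20 (0.964 to 1.48) for Tlr4. Cd14 was lower than in the other cells in 10 of 10 hashtags there, but the oil hashtags held 1 to 5 such cells each, and Oil3 counted as lower from 0 UMIs in 1 cell. Ly96 was lower in 7 of 10 hashtags (3 at 0 UMIs), Tlr3 in 8 (4 at 0 UMIs) and Tlr7 in 7. TAM gave 74 of the 87 cells.

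**Figure D4:**
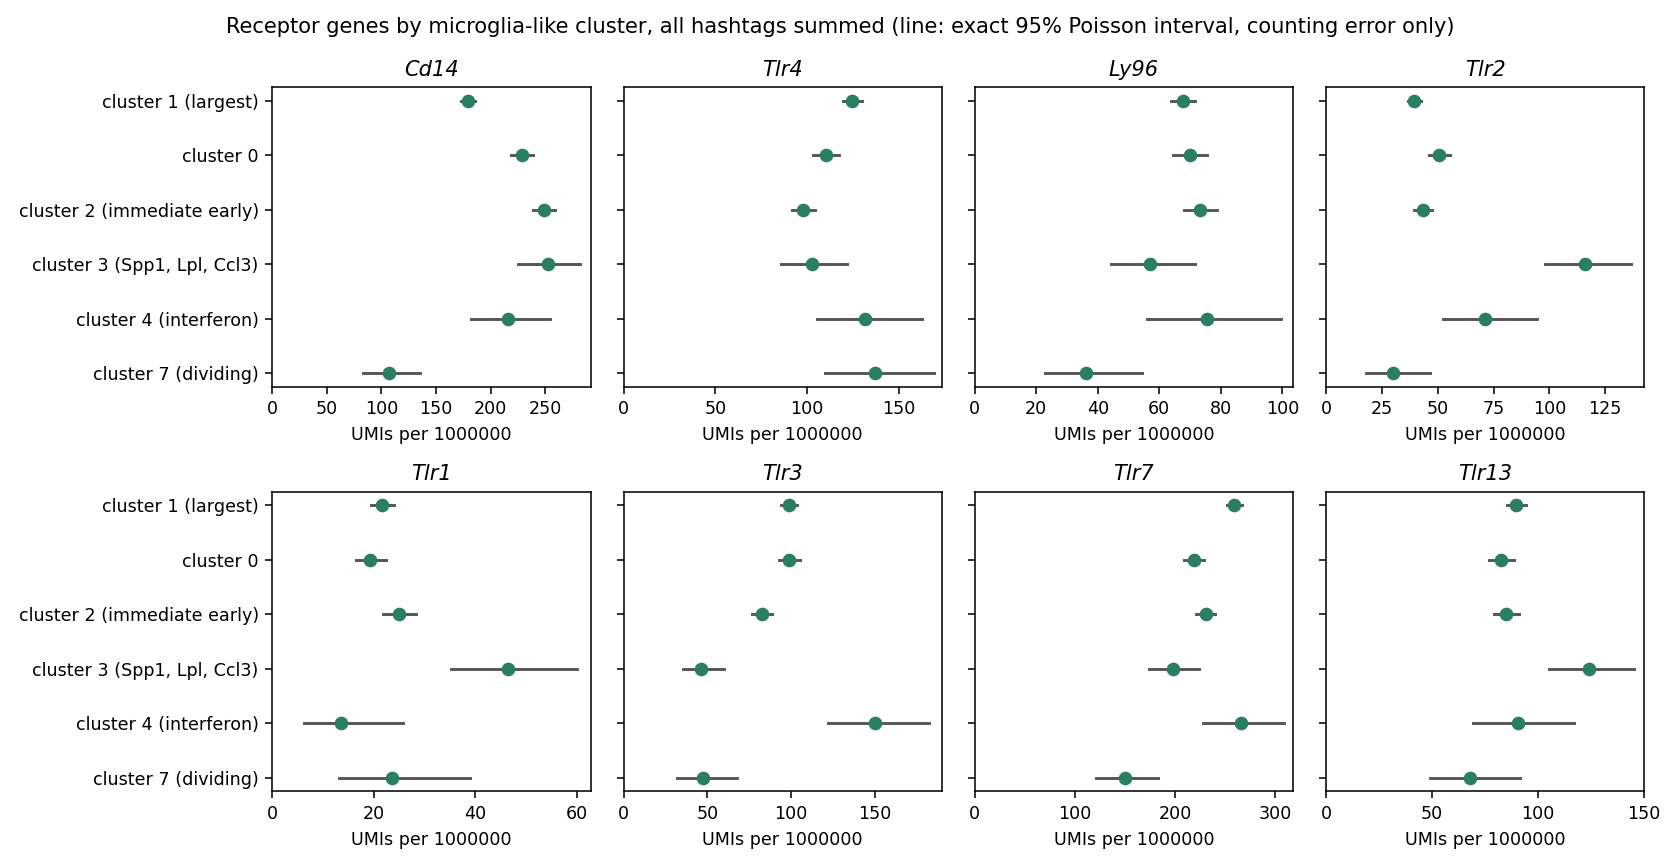
CPM of 8 receptor genes in the 6 microglia-like clusters (rows), all hashtags summed, with lines for exact 95% Poisson intervals that cover counting error only. Tlr2 reaches 116 in cluster 3 and lies between 29.9 and 71.0 elsewhere, and Tlr3 reaches 149.6 in cluster 4 and is under 50 in clusters 3 and 7.

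Summed over all hashtags, Cd14 was lower and Tlr4 higher in cluster 1, the largest, than in cluster 2. Cd14 stood at 179 CPM in cluster 1 and 249 in cluster 2, with cluster 0 between them at 228. Tlr4 stood at 125 in cluster 1, 110.0 in cluster 0 and 97.9 in cluster 2. In cluster 1, Cd14 was lower and Tlr4 higher than in the remaining cells of the same hashtag in 10 of 10 hashtags. In cluster 2, Cd14 was higher in 7 of 10 hashtags, and Tlr4 was lower in 6 of 10. Cluster 2 held 1601 oil and 153 TAM cells and cluster 1 held 964 and 2246, so these sums mix state with treatment. Tlr4 in clusters 2 and 1 stood at 120.2 (97.9 to 146) and 127 (121 to 134) in TAM, and at 95.7 and 118 in oil.

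Between treatments, the small clusters held too few cells per hashtag for a test, and summed counts are given. In cluster 3, Tlr2 stood at 124 CPM in TAM (100.3 to 151) and 103 in oil (75.7 to 137), and Tlr3 at 58.0 in TAM (42.4 to 77.3) and 26.3 in oil (13.6 to 46.0). In cluster 4, Tlr2 stood at 44.8 in TAM (27.0 to 70.0) and 118 in oil (78.3 to 170.3), and Tlr3 at 127 in TAM (95.7 to 166) and 189 in oil (138 to 253). These values rested on few cells: without Oil3 the Tlr3 level in oil was 118, below that in TAM, and without TAM1 the Tlr2 level in TAM was 28.5. Of the 28 Tlr2 UMIs of the oil cells in cluster 4, Oil2 and Oil5 gave 10 each. Cd14 in cluster 4 stood at 177 in TAM (139 to 222) and 286 in oil (222 to 363).

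Beyond the members, 92 gene symbols were listed by role, and 76 of them were tested. The lists hold genes that act with these receptors, other Toll-like receptors and other innate receptors. None rose and 3 fell, against 4.53% of all genes tested called in either direction, with a median log2 fold change of -0.03. Slc15a3, an endolysosomal peptide and histidine transporter, had 131, 123, 115, 99.2 and 96.5 CPM in TAM1 to TAM5, against 211, 162, 182, 159.7 and 131 CPM in Oil1 to Oil5. TAM1 and Oil5 nearly coincided, and all other TAM hashtags lay below all oil hashtags. Slc15a3 fell by 0.58 ± 0.11 on the log2 scale (SE, adjusted p = 0.00662 by edgeR).

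Cnpy3, a co-chaperone that helps fold Toll-like receptors in the endoplasmic reticulum, had 89.5, 83.6, 90.7, 83.4 and 84.6 CPM in TAM1 to TAM5, against 103, 105, 105, 101 and 107 CPM in Oil1 to Oil5. The treatments did not overlap. Cnpy3 fell by 0.26 ± 0.05 (SE, adjusted p = 0.00694 by edgeR), and the fold change was also -0.26 once the immediate early level was in the model (adjusted p = 0.250). Rel, an NF-kB subunit, fell by 0.34 ± 0.08, to 177 ± 15.1 CPM in TAM, against 225 ± 32.5 CPM in oil (adjusted p = 0.0241 by edgeR). Rel was no longer called without TAM3, TAM4, TAM5, Oil2 or Oil3 (adjusted p up to 0.0682). With that covariate the values were -0.06 for Slc15a3 (adjusted p = 0.919) and -0.06 for Rel (adjusted p = 0.932). Without the cluster led by immediate early genes, 1.95% of genes tested were called, and neither Tlr4 at 0.16 (adjusted p = 0.181) nor Cd14 at -0.31 (adjusted p = 0.0562) was among them. In that fit Cnpy3 was still called, at -0.29 (adjusted p = 0.0251), and Slc15a3 and Rel were not, at -0.34 (adjusted p = 0.0580) and -0.19 (adjusted p = 0.0872).

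**Figure D5:**
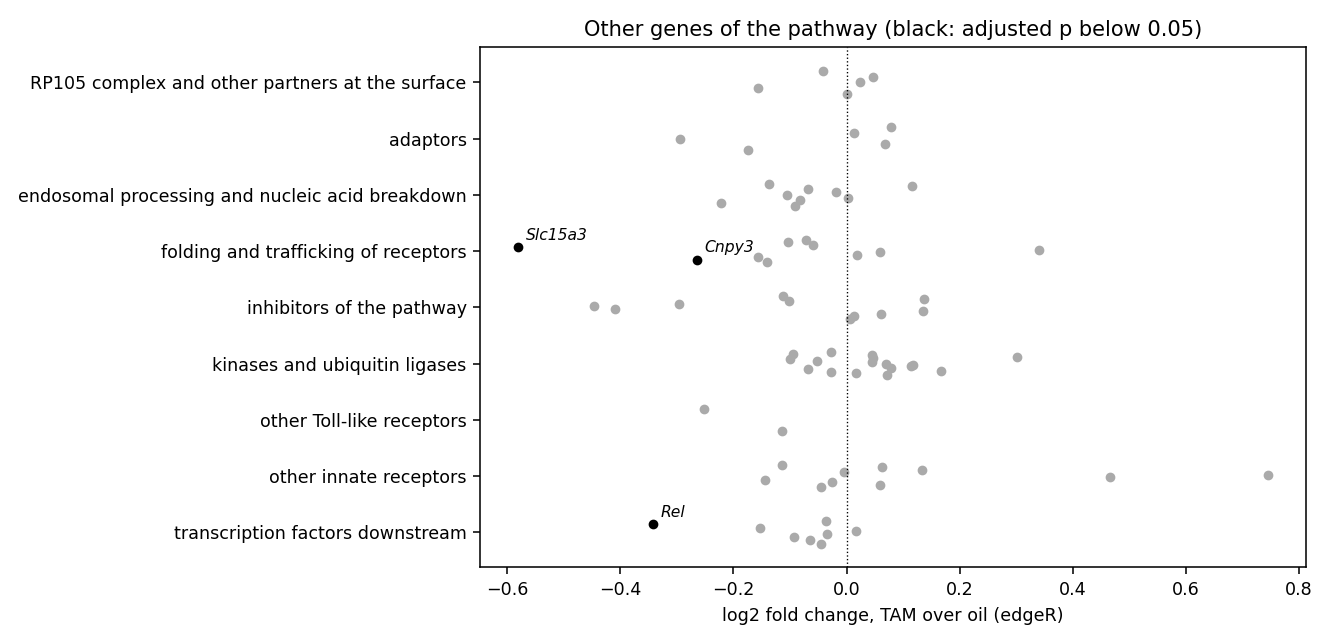
Log2 fold change of TAM over oil (horizontal axis) for the 76 other listed genes tested, 1 point a gene, grouped by list, with black for genes called by edgeR. Only Slc15a3 at -0.58, Cnpy3 at -0.26 and Rel at -0.34 are called.

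No gene passed the test in the remaining lists, which were adaptors (5 tested), RP105 and other surface partners (5), endosomal processing (9), kinases and ubiquitin ligases (17), inhibitors (10), other innate receptors (10) and other Toll-like receptors (2). Unc93b1, the chaperone that carries the endosomal receptors out of the endoplasmic reticulum, averaged 899 ± 23.9 CPM in TAM and 945 ± 41.4 CPM in oil (adjusted p = 0.319 by edgeR). Myd88, the adaptor shared by all members but Tlr3 among the receptors, averaged 23.3 ± 2.79 CPM in TAM and 26.3 ± 2.04 CPM in oil (adjusted p = 0.358). Tlr5, the flagellin receptor, averaged 10.9 ± 3.19 CPM in TAM and 13.1 ± 1.45 CPM in oil, and Tlr12 20.5 ± 1.13 CPM in TAM and 22.2 ± 1.73 CPM in oil (adjusted p = 0.478 and 0.593). Tlr8 and Tlr11 did not pass the filter on low counts.

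Over the 10 hashtags, the genes whose log2 CPM was most like that of Cd14 were Ctsl (r = 0.97), Coq10b (0.96) and Gna11 (0.96) among 7079 genes averaging at least 20 CPM. For Tlr4 they were Fkbp15 (0.95), D330023K18Rik (0.94) and Rreb1 (0.94), and for Tlr7 Purg (0.94), Golga1 and Mfap3 (0.91 each). These points share the treatment and the immediate early gradient, so r is a description without a p. Over the 6 microglia-like clusters, Tlr2 was most like Cct6a, Cd48 and Utp15 (0.99 each) and Tlr3 most like Gigyf1, Rxylt1 and Dcaf12 (all above 0.99). These 6 points share 1 library and differ in depth.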

How the data were processed

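One pool of sorted mouse brain cells was given as a gene expression library and a hashtag library. The deposited values are whole-number UMI counts per gene or hashtag and barcode, made, per the file headers, with Cell Ranger 7.0.0, and on mm10 per the submitters' processing notes. How reads shared between genes were treated is not given in the sources used here. Barcodes were assigned to hashtags with Seurat 5.3.0 (HTODemux, positive quantile 0.99), which gave 8055 singlets, 1737 doublets and 183 negatives. Doublets and negatives were left out, no other doublet caller was run, and about 196 same-hashtag doublets are expected among the singlets. Cells with 500 or more genes, 1000 or more UMIs and no more than 10% mitochondrial UMIs were clustered in scanpy 1.11.5 (2000 variable genes without sex-linked genes, 30 components, 15 neighbours, Leiden resolution 0.5), and clusters were called microglia-like from a marker list. A cluster was left unnamed if its median UMIs were below the median of all cells divided by 3 and no marker was among its leading genes.

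Counts were summed per hashtag over microglia-like cells and tested with edgeR 4.0.16 (TMM, filterByExpr, quasi-likelihood F test), with 5 hashtags per treatment. DESeq2 1.42.0 was an alternative. The edgeR steps were tested on simulated data. Members, gene lists and tests were chosen with earlier results of these data known. Named genes were all members, up to 4 called genes per list, and the 3 genes most like each abundant member. The genes Tlr5, Tlr12, Unc93b1 and Myd88, the cluster weights, the cluster levels without single hashtags and the test between clusters 0 and 1 were chosen after values were seen. GENCODE vM21 gave gene positions. Intervals on counts are exact Poisson intervals and cover counting error only.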

Additional observations from a re-analysis of the deposited data

Results flagged for a closer look

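Tlr6 in Oil1 was 24.9 CPM, against 17.9 to 19.8 CPM in the other oil hashtags, and its gap to them was above Dixon's critical value for 5 samples. It was the single case among the 20 sets of 5 hashtags checked (10 genes in 2 treatments), and chance alone gives about 1 in 20. Tlr6 stood at 14.5 to 21.6 CPM in TAM hashtags, none of which stood apart. No explanation was tested.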

How the results depend on the processing

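In all, 506 genes (4.53% of 11171 tested) and 2 members (Tlr4 and Cd14) were called. Percentages below are of the genes tested in each setting, as that number differs between settings. Of 359 alternative values for the members, Slc15a3, Cnpy3 and Rel, 284 kept direction and side of the threshold, 51 lost the call in the same direction and 24 changed sign. A call could be lost only for Tlr4, Cd14, Slc15a3, Cnpy3 and Rel. For the other members, staying uncalled in the same direction counted as kept, so the totals do not measure stability. The settings included clustering without the members, which could not differ, since no member was among the variable genes. The number of genes called was 833 without a filter on low counts (4.15% of 20089) and 7 without Oil1, Oil2 and Oil3 (0.0604%). It was 74 with the immediate early covariate (0.662%), 37 with hashtag order (0.331%) and 872 with high or low Xist (7.81%) as a covariate. It was 123 within low Xist (1.11%) and 213 without the immediate early cluster (1.95%). It was 47 in cluster 0 alone (0.542%) and 15 in cluster 1 alone (0.152%). With the top hashtag at 80% or more, where Oil5 kept 1 cell, it was 75 (1.26% of 5936). Leaving out 1 hashtag at a time gave 254 to 655 genes (2.25% to 5.82%) and 0 to 2 members. Without TAM3 there were 290 genes (2.58%), without TAM4 263 (2.33%) and without TAM5 255 (2.26%). Without Oil2 there were 321 (2.84%), and without Oil3 254 (2.25%). With library size alone, 359 of 615 called genes (5.51%) were higher in TAM, against 184 of 506. Called members numbered 1 within high Xist, where 5.74% of genes were called, and 1 in cluster 0 alone. They numbered 0 by edgeR without Oil1, Oil2 and Oil3, with the immediate early or order covariate, within low Xist, without the immediate early cluster, in cluster 1 alone and at 80%, with 1, 1, 0, 3, 4, 0 and 1 members at an unadjusted p under 0.05. DESeq2, run on all hashtags, called 524 genes (2.61%). A top hashtag of 50% or more, added after seeing the data, called 505 (4.57%).

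Deviations of same-numbered hashtags correlated at 0.60, 0.40, 0.03, 0.38 and 0.24. Since number 3 showed almost none and the labels give the numbers no meaning, they were not taken to pair the samples, although same-numbered hashtags also share high or low Xist. With the replicate block 869 genes (7.78%) and 2 members were called, and only numbers 1 and 2 matched best with their own number.

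Signs changed with the immediate early covariate for Tlr1 (0.22), Tlr2 (0.068), Tlr6 (0.18) and Ly96 (0.10). They changed with the order covariate for Tlr1 (0.37), Tlr2 (0.095), Tlr6 (0.20), Cd14 (0.046), Ly96 (0.20), Slc15a3 (0.075) and Rel (0.038), and in cluster 1 alone for Tlr1 (0.063), Tlr3 (-0.055), Tlr6 (0.035) and Ly96 (0.094). Tlr1 was 0.034 without Oil1, Oil2 and Oil3, 0.022 within high Xist and 0.036 without the immediate early cluster. Tlr2 was 0.050 within low Xist, Tlr9 -0.011 without the immediate early cluster and Tlr13 -0.018 at 80%. Leaving out 1 hashtag gave -0.14 to 0.067 for Tlr1 and -0.0039 to 0.24 for Tlr9. Apart from Cd14, Slc15a3 and Rel, none of these genes was called in the fit on all hashtags, and the cause was not tested.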

Other observations

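The 2 clusters left unnamed are in no comparison. Cluster 5 (52 cells), led by the MHC class II gene H2-Eb1, had Tlr13 at 119 CPM of its total UMIs (95% counting interval 77.0 to 176), Tlr7 at 143 (96.4 to 204), and Cd14 and Tlr4 at 85.7 each (50.8 to 135). Tlr9 had 0 UMIs there (0 to 17.6 CPM). Cluster 6 (313 cells), with 6530409C15Rik and Taco1 leading and 3 mitochondrial genes among its 10 leading genes, had Tlr7 at 331 (283 to 385), Tlr4 at 121 (92.6 to 155) and Cd14 at 129 (99.5 to 164), with a median of 1502 UMIs per cell. The 14 microglial markers were detected in a median of 62.5% of its cells, and it was left unnamed by the rule on low UMIs.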
